A study of Mus musculus with 74 samples.

Results

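The non-clustered protocadherin genes Pcdh1, Pcdh7, Pcdh9, Pcdh10, Pcdh17 and Pcdh18 were followed in primary mammary tumors (PT) and lung metastases (Lung met) of transgenic mice. They are 6 of 22079 gene symbols with a group mean, and were chosen by name, with Pcdh17 selected on its difference between Lung met and PT in these same data. Every member value below is therefore a description and not a test. The group means gave a member 25 values in all, from 5 comparisons. Pcdh1, Pcdh7, Pcdh17 and Pcdh18 had a row in each of the 5, Pcdh10 had none in C3Tag, and Pcdh9 had one only in the AKR-named comparison.

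Protocadherins are the largest branch of the cadherin superfamily, calcium-dependent adhesion proteins with extracellular cadherin repeats, a single membrane span and a cytoplasmic tail that does not bind beta-catenin. The clustered kind sit in arrays of variable exons, whereas the non-clustered kind, which include the delta-protocadherins, each have a gene of their own. Most are best known from neurons, where they sort axons and synapses. Pcdh10 and Pcdh17 can recruit the WAVE complex, which drives branched actin assembly, to cell contacts.

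The series holds 74 bulk RNA-seq samples. All mice were transgene-positive females, and the oncogenes were Her2 and Myc, each under the MMTV promoter, SV40 large T antigen under the C3(1) promoter (C3Tag), and polyoma middle T under the MMTV promoter (PyMT). The Her2, C3Tag and Myc mice were FVB, with 6 PT and 6 Lung met samples in Her2 and in Myc and 7 and 7 in C3Tag. The PyMT-F1 mice came from FVB PyMT males bred to AKR, BALB or SEAGN females, with 6 PT and 6 Lung met samples named for each cross. The labels disagreed on the strain of some PyMT-F1 samples, and the sample names were followed. PyMT mice were aged to a humane endpoint. In the FVB driver models, tumors of mice with a single lesion were resected and the mice then aged further. All PT tissue of a mouse was combined, and metastases were taken whole, so the samples hold tumor cells and their surroundings in unknown proportion. In such samples fewer cells of a type and less RNA per cell cannot be told apart.

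What was measured is 1 normalized mean per gene and tissue in each comparison, made by the authors. No value of a single sample entered, so there is no SD, no n of the mean and no p-value here, and the depth of each sample is unknown. Each comparison was normalized separately, and levels are compared within it only. A log2 ratio below is log2 of the Lung met mean over the PT mean, and a 2-fold difference is a log2 ratio of at least 1 in either direction. Myc gave no means and was not used. The comparison deposited under AKR is called AKR-named, because its strain is not settled. Ratios of its means equalled, within 1%, 269 of 275 values listed elsewhere in the study for the C57BL/6J cross, whereas BALB matched its own cross in 275 of 275 and SEAGN in 267 of 268. The median log2 ratio of all genes lay between -0.001 and 0.03 in the 5 comparisons.

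Pcdh17 was the member with the largest difference in every comparison. It encodes a delta-protocadherin known from synapses and axon tracts. The authors cite human tissue data (GTEx) in which the gene's expression is high and lung-specific, and propose that it may reflect lung stroma. They also report its expression in PT of PyMT-F1 mice, depending on genetic background. Which cells the transcripts came from was not tested. The Pcdh17 mean went from 41.1 in PT to 191 in Lung met in Her2, a log2 ratio of 2.22. In C3Tag the mean was 43.7 in PT and 303 in Lung met, a log2 ratio of 2.79. In both FVB driver models the Lung met mean was thus over 4-fold that of PT. In BALB, Pcdh17 had a mean of 13.0 in PT and 113 in Lung met, a log2 ratio of 3.12. The SEAGN means were 15.6 and 125, a log2 ratio of 3.00. AKR-named gave 38.1 in PT and 189 in Lung met, a log2 ratio of 2.31. The ratio of Lung met over PT thus spanned 4.65 to 8.69 over the 5 comparisons, with or without AKR-named.

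**Figure D1:**
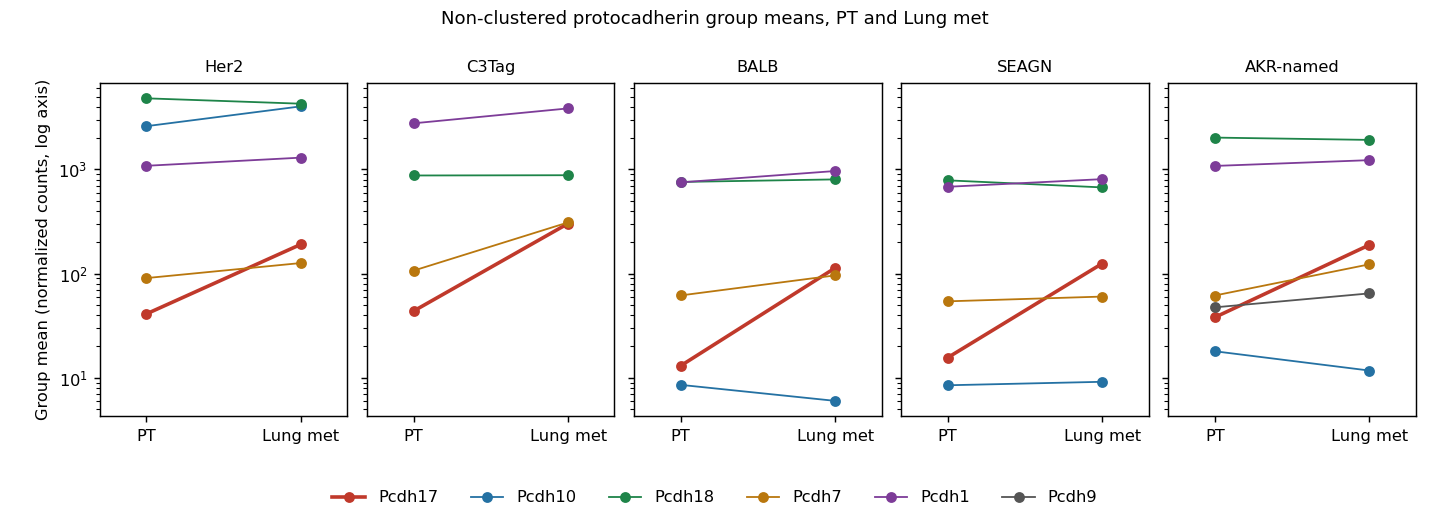
Group means of the 6 protocadherins in PT and Lung met, in normalized counts on a log axis, with 1 panel per comparison and 1 line per gene. Pcdh17 is the steepest line of each panel, from 41.1 to 191 in Her2 and from 13.0 to 113 in BALB, whereas Pcdh18 and Pcdh1 are near flat.

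Few genes of any kind had a larger ratio. Pcdh17 ranked 98 from the top of 18208 genes in Her2, 179 of 19320 in C3Tag, 17 of 17270 in BALB, 46 of 17351 in SEAGN and 259 of 17829 in AKR-named. Of 11920 genes whose higher mean was at least 10 in all 5 comparisons, so that a gene could enter through Lung met alone, 68 (0.570%) were at least 2-fold higher in Lung met in each, Pcdh17 among them, 15 were at least 4-fold higher in each, and 11 were at least 2-fold lower in each. Another 4 genes had a log2 ratio at or above that of Pcdh17 in every comparison, and they were named after their values were seen. Ager and Clic5 mark alveolar type 1 cells, and Lamp3 and Napsa mark the alveolar type 2 cells that make surfactant. Their log2 ratios spanned 3.54 for Napsa in BALB to 7.84 for Lamp3 in C3Tag.

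The level of Pcdh17 was low in PT and moderate in Lung met. The percentage of genes with a lower mean was 21.3% in PT and 37.4% in Lung met in Her2, and 21.7% and 45.8% in C3Tag. It was 14.2% and 47.0% in BALB, 17.0% and 50.2% in SEAGN, and 20.2% and 35.0% in AKR-named. Pcdh17 thus moved up by 14.7 to 33.2 percentage points, and stood near the middle of all genes at most. Its exons span 12.991 kb, so a ranking of the means per kb of exon put it lower, between 1.10% in BALB and 4.25% in Her2 for PT and between 17.1% in AKR-named and 21.4% in C3Tag for Lung met. Genes without an exon length are left out of all per kb ranks. A length was found for 82.5% of genes in BALB and in SEAGN and for 99.7% in the others.

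**Figure D2:**
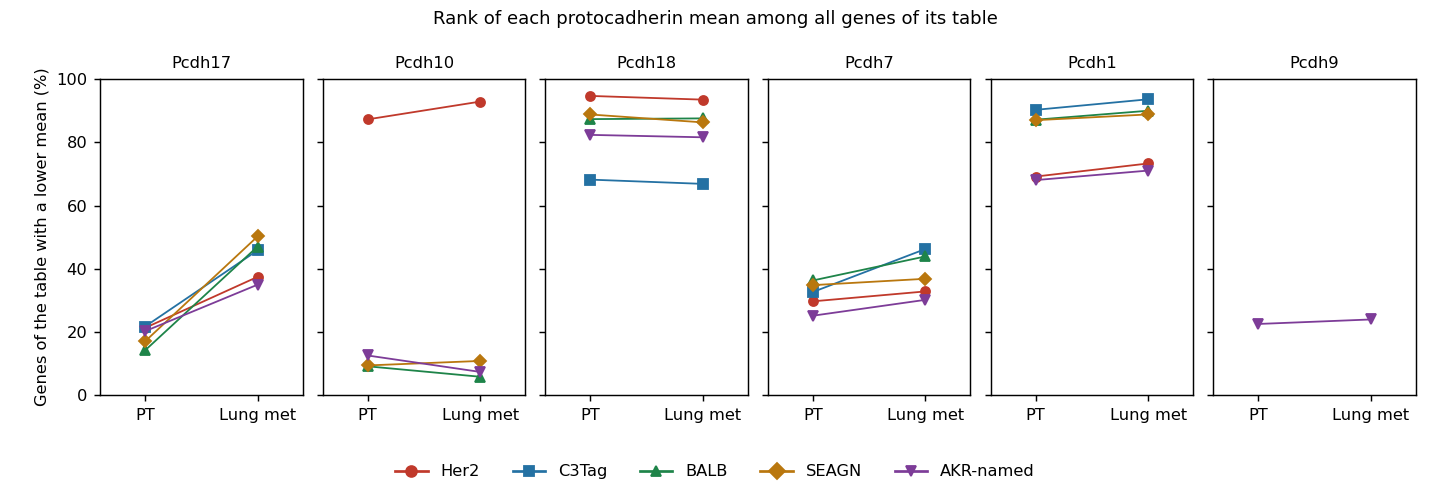
Percentage of genes of a comparison with a lower mean than the named protocadherin, in PT and Lung met, with 1 panel per gene and 1 line per comparison. Pcdh17 lies between 14.2% and 21.7% in PT and between 35.0% and 50.2% in Lung met, and Pcdh10 stands at 87.2% in Her2 PT against 9.14% to 12.6% in the other comparisons.

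Pcdh7, whose cytoplasmic tail can bind a protein phosphatase, was higher in Lung met in 5 of 5 comparisons, by a smaller and less even margin. Its means were 90.7 in PT and 126 in Lung met in Her2 (log2 ratio 0.48). In C3Tag they were 107 and 310 (log2 ratio 1.54), the only value of a member other than Pcdh17 past 2-fold. BALB gave 61.8 and 96.2 (0.64 in log2) and SEAGN 54.2 and 60.2 (0.15 in log2). In AKR-named the means of 61.7 and 122.8 had a ratio of 1.99, just under 2-fold. That value and the Pcdh7 value in C3Tag were the nearest on either side of the threshold.

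Pcdh1, a protocadherin of airway and other epithelia, was also higher in Lung met in each comparison, but never by 2-fold. Its means in PT and Lung met were 1084 and 1298 in Her2, and 2769 and 3850 in C3Tag. They were 751 and 965 in BALB, 681 and 807 in SEAGN, and 1080 and 1227 in AKR-named. The log2 ratios of Pcdh1 spanned 0.18 to 0.48, and its mean exceeded those of 68.0% to 90.3% of genes in PT, or 51.1% to 78.6% when ranked per kb of exon.

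Pcdh18, which binds the adaptor Dab1, was abundant and close to equal in the tissues. In Her2 its mean was 4811 in PT and 4272 in Lung met, and in C3Tag 875 and 880. The values were 758 and 802 in BALB, 786 and 672 in SEAGN, and 2021 and 1920 in AKR-named. Its log2 ratios ran from -0.22 in SEAGN to 0.08 in BALB, higher in 2 comparisons and lower in 3.

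Pcdh10, the other member known to recruit the WAVE complex, stood apart by its level in Her2. There its mean was 2600 in PT and 4031 in Lung met (log2 ratio 0.63), above 87.2% and 92.9% of genes. In BALB the means were 8.57 and 6.01 (log2 ratio -0.51), in SEAGN 8.49 and 9.17 (0.11) and in AKR-named 18.0 and 11.8 (-0.62), above 5.84% to 12.6% of genes. It was thus high in both tissues of Her2 and near the bottom of the table in the PyMT-F1 comparisons, with no common direction between Lung met and PT. Ranked per kb of exon, over 15.888 kb, Pcdh10 exceeded 58.6% of genes in PT and 69.1% in Lung met in Her2, and 0.0912% to 0.967% in the PyMT-F1 comparisons. Pcdh9, a protocadherin of sensory and motor circuits, had means of 47.5 in PT and 64.6 in Lung met in AKR-named (log2 ratio 0.44).

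**Figure D3:**
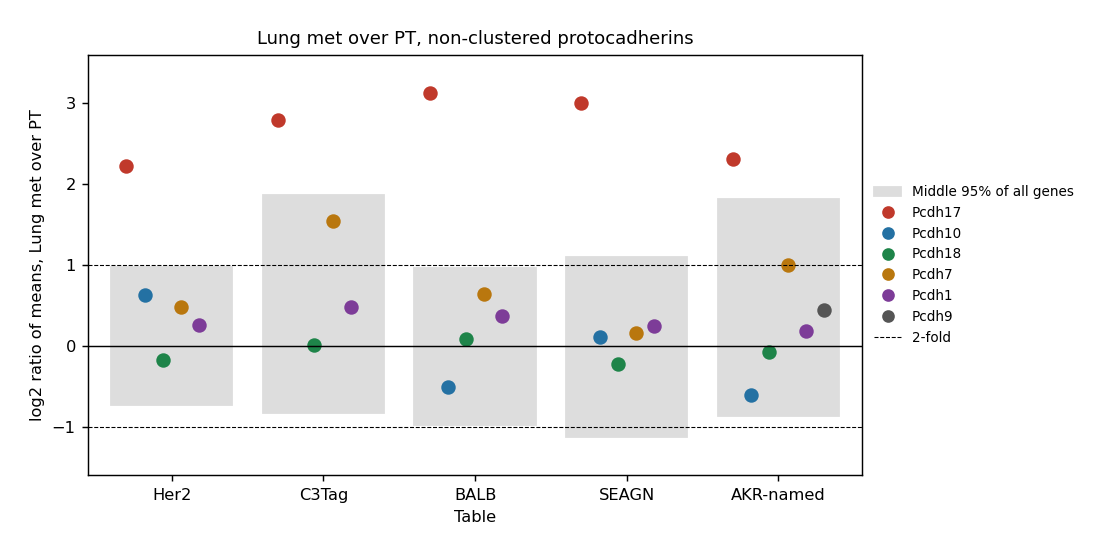
log2 ratio of Lung met over PT for each protocadherin (points) in each comparison, with the middle 95% of all genes as grey boxes and dashed lines at 2-fold. Pcdh17 lies above the box in each comparison, at 2.22 to 3.12, and all other members lie inside it.

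Counted against the rest of the genes, 1 of 5 members was at least 2-fold higher in Lung met in Her2, where 2.38% of all genes were. The counts were 2 of 4 in C3Tag against 7.42% of genes, 1 of 5 in BALB against 2.26%, 1 of 5 in SEAGN against 2.86% and 1 of 6 in AKR-named against 7.31%. No member was at least 2-fold lower in any comparison. Of all genes, 1.43% were that much lower in Her2, 1.7% in C3Tag, 2.4% in BALB, 3.22% in SEAGN and 1.73% in AKR-named. Pcdh17 was chosen by this contrast, so nothing is read from its counts. The members other than Pcdh17 had 20 values, of which 15 were higher in Lung met, all 5 of Pcdh1 and all 5 of Pcdh7 among them, with a median log2 ratio of 0.21. Of all genes, 49.7% were higher in Her2, 51.2% in C3Tag, 55.3% in BALB, 52.6% in SEAGN and 50.8% in AKR-named.

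Compared per kb of exon, the members differed widely in level within a comparison. Pcdh18 had the largest level per kb of them except in C3Tag, where Pcdh1 held 64.1% of the members' summed level per kb in PT and 66.9% in Lung met. In Her2 Pcdh18 held 75.0% of that sum in PT and 65.0% in Lung met, with Pcdh10 next at 13.7% and 20.7%. The share of Pcdh17 went from 0.265% in PT to 1.20% in Lung met in Her2 and from 0.685% to 3.56% in C3Tag. It went from 0.429% to 3.15% in BALB, from 0.521% to 4.14% in SEAGN and from 0.568% to 2.72% in AKR-named. The large ratio of Pcdh17 thus belonged to a gene that made up a minor part of these transcripts in both tissues.

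In the mouse genome (GRCm38, GENCODE M21) all 6 are protein-coding genes. Pcdh17 (ENSMUSG00000035566) spans chr14:84443563-84539002 on the plus strand, and Pcdh9 (ENSMUSG00000055421) lies on the same chromosome at chr14:93013410-93890679. Pcdh10 (ENSMUSG00000049100) and Pcdh18 (ENSMUSG00000037892) lie at chr3:45378398-45435623 and chr3:49743296-49757325. Pcdh7 (ENSMUSG00000029108) lies at chr5:57717967-58133230 and Pcdh1 (ENSMUSG00000051375) at chr18:38185914-38212053. Genes with means around Pcdh17 had much smaller or opposite differences in the 3 comparisons with matching identifiers. Gm7004, a processed pseudogene 219 kb downstream, had log2 ratios of -0.22 in Her2, -0.30 in C3Tag and -0.32 in AKR-named. Diaph3, a formin gene 2116 kb downstream, gave -0.37, -0.65 and -0.19, and Sugt1, a co-chaperone gene 4808 kb upstream, gave -0.11, -0.25 and 0.27. Cnmd, a cartilage gene 4781 kb upstream, was listed in 2 of the 3, at -1.57 in Her2 and -0.07 in AKR-named.

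Pcdh17 also had the largest log2 ratio of all protocadherin genes of each comparison, of which there were 46 to 49. The next was Pcdhga10, a clustered gamma gene, in Her2 (log2 ratio 2.02, means 7.06 and 28.6), in C3Tag (2.51, means 26.4 and 150) and in SEAGN (1.47, means 5.35 and 14.9). It was Pcdh7 in BALB, and Pcdhgb7 in AKR-named at 1.39. These genes were named after their values were seen, and the gamma genes share constant exons, so reads there cannot be given to 1 of them. The clustered protocadherins as a list had a median log2 ratio of 0.09 in Her2, 0.09 in C3Tag, -0.28 in BALB, -0.67 in SEAGN and 0.34 in AKR-named. At least 2-fold higher were 1 of 42 in Her2 (all genes 2.38%), 8 of 41 in C3Tag (7.42%) and 0 of 41 in BALB (2.26%). The counts were 1 of 42 in SEAGN (all genes 2.86%) and 3 of 38 in AKR-named (7.31%). At least 2-fold lower were 1 in Her2 (all genes 1.43%), 0 in C3Tag (1.7%) and 1 in BALB (2.4%). In SEAGN 11 were that much lower (all genes 3.22%), and in AKR-named 1 was (1.73%). Of the 45 with a mean anywhere, none was past 2-fold in the same direction in all 5, a call that needs a mean in each. Of the 11920 genes compared above, 0.570% were at least 2-fold higher in each. Among 6 further non-clustered genes, 3 had means. Pcdh12, the protocadherin of endothelium, was higher in Lung met in each comparison, by 0.18 in SEAGN to 1.15 in AKR-named on the log2 scale. Pcdh19, which in humans is linked to epilepsy, ran from -1.73 in Her2 to 0.10 in AKR-named. Pcdh11x had means of 49.1 in PT and 17.5 in Lung met, in BALB only. These genes were named after their values were seen.

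The WAVE complex genes had median log2 ratios of 0.07 to 0.17. With a mean in each comparison again needed, none of 11 was past 2-fold in the same direction in all 5 comparisons. The only one of them with a larger ratio than Pcdh17 in any comparison was Wasf3, named after its values were seen, in AKR-named, with means of 6.18 and 57.2. Classical cadherins and catenins had medians of -0.03 to 0.20, again with none of 13 past 2-fold throughout. Cdh6 had log2 ratios of 1.92 in C3Tag and 2.72, above Pcdh17, in AKR-named, the comparisons where it had means. E-cadherin (Cdh1) stayed between -0.19 and 0.11 and beta-catenin (Ctnnb1) between -0.18 and 0.25, all 3 named after their values were seen.

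The 5 genes with the pattern most like Pcdh17 were found by the mean absolute difference of log2 ratios over the 5 comparisons. Only genes whose higher mean was at least 10 in each were searched, so a gene could enter through Lung met alone. Calcrl, a receptor subunit for adrenomedullin and CGRP, differed from Pcdh17 by 0.33 on average, with log2 ratios of 1.98 to 3.00. Jchain, which joins IgA and IgM subunits, differed by 0.36, and its ratios spanned 2.42 to 3.28. Gata6, a transcription factor of lung epithelium and other endodermal tissue, differed by 0.40, with ratios of 2.22 to 3.14. Clec1a, a C-type lectin receptor of endothelium, differed by 0.42, and spanned 1.52 in Her2 to 3.45 in AKR-named. Gpnmb, a glycoprotein of macrophages, differed by 0.44, with ratios of 2.31 to 3.76. Their levels were not alike, since in Lung met Calcrl exceeded 69.5% to 87.2% of genes and Gata6 22.1% to 61.1%. Some PT means were very low, with 3.50 in SEAGN and 5.14 in BALB for Gata6 and 2.56 in SEAGN for Jchain. In each of the other choices tried, 4 of the 5 genes were shared. Igha took a place when the largest difference was used, and Ccdc85a when AKR-named was left out.

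**Figure D4:**
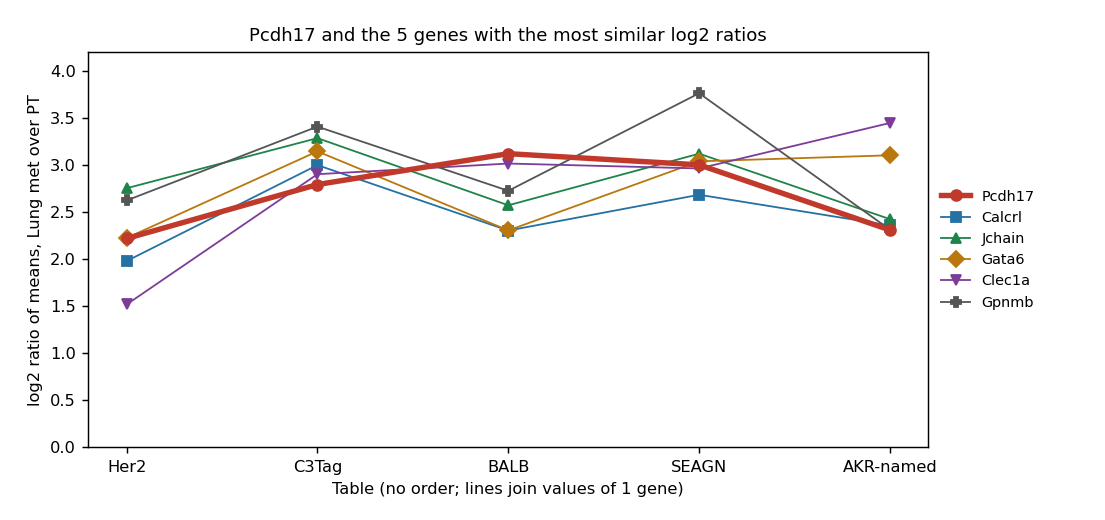
log2 ratio of Lung met over PT for Pcdh17 (thick line) and for the 5 genes with the smallest mean absolute difference from it, over the 5 comparisons. The lines lie between 1.52 and 3.76, and Clec1a departs most in Her2 and AKR-named.

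Many, not all, markers of lung cells were higher in Lung met in the same comparisons, and their part in the Pcdh17 difference was not tested. All 10 endothelial markers had means, and the ratio of Lung met over PT of their sum was 1.69 in Her2, 2.84 in C3Tag, 1.59 in BALB, 1.68 in SEAGN and 3.50 in AKR-named. The ratio of Pcdh17 was larger, by 1.41 times in AKR-named and by 2.44 to 5.47 times in the other 4. Pcdh17 exceeded 9 of 10 endothelial markers in Her2 and C3Tag, 10 of 10 in BALB and SEAGN, and 8 of 10 in AKR-named. Those above it were Vwf, the clotting protein of endothelium, in Her2 (log2 ratio 3.23), C3Tag (3.04) and AKR-named (2.50), and Cldn5, a tight junction protein, in AKR-named (4.49). The pan-endothelial genes Pecam1 and Cdh5, named after their values were seen, had log2 ratios of 0.44 to 1.87 and 0.46 to 1.64. Of 10 lung capillary markers 9 had means, all but Car4. Tbx2 alone of these was past 2-fold in all 5, with log2 ratios of 1.42 to 3.20, and their sum had a ratio of 1.32 to 3.76. In the same list Fibin was lower in Lung met in 5 of 5 comparisons, at -1.18 to -0.17, and Ednrb, an endothelin receptor, ran from -2.15 in SEAGN to 0.05 in AKR-named, both named after their values were seen.

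Some alveolar markers had larger ratios than Pcdh17 and others smaller ones. Those above it were 4 of 7 type 1 markers in Her2, C3Tag and SEAGN, 3 in BALB and 5 in AKR-named. Of 5 type 2 markers, 2 lay above it in Her2, 3 in BALB and 4 in each of the others. The type 1 list held 8 genes, of which Cldn18 had no mean. The type 2 list also held 8, and the surfactant genes Sftpa1, Sftpb and Sftpc had no mean in any comparison. The median log2 ratio of 7 alveolar type 1 markers was 3.32 in Her2, 2.82 in C3Tag, 2.85 in BALB, 3.57 in SEAGN and 3.86 in AKR-named, and 5 of the 7 were past 2-fold in all. Ager had log2 ratios of 4.04 to 5.48, Clic5 of 3.73 to 5.53, Hopx of 2.06 to 4.07 and Rtkn2 of 2.55 to 4.71. The median of 5 alveolar type 2 markers was 1.26 in Her2, 6.29 in C3Tag, 3.54 in BALB, 4.61 in SEAGN and 4.62 in AKR-named. Of these, Lamp3 spanned 4.62 to 7.84, Sftpd 1.21 to 6.29, Napsa 3.54 to 6.01 and Slc34a2 1.26 to 7.96. Summed over the list, the ratio was 0.986 in Her2, 4.83 in C3Tag, 0.864 in BALB, 2.26 in SEAGN and 2.13 in AKR-named for type 1. For type 2 the same sums gave 1.54, 20.6, 2.41, 3.78 and 4.46. The type 1 sums in PT are dominated by Aqp5, which had a PT mean of 57616 in Her2. The type 2 sums in PT are dominated by Abca3, with a PT mean of 5907 in Her2, where the sum was 8731. Log2 ratios of Abca3 ran from -0.21 in AKR-named to 1.88 in C3Tag. Aqp5 and Abca3 were named after their values were seen. Ager and Lamp3 were low but not at 0 in PT, with a mean of 16.7 to 214 for Ager and 3.12 to 140 for Lamp3. Other alveolar markers were not low in each PT, as in Her2 Slc34a2 had a PT mean of 1565 and Sftpd of 1213.

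Markers of pericytes and smooth muscle had median log2 ratios of -0.19 to 0.39, and their sums had ratios of 0.874 to 1.21. All 8 had means in Her2, C3Tag and BALB. Only 5 did in SEAGN and in AKR-named, where Acta2, Myh11 and Cnn1 had none. The lowest sum ratio (SEAGN) and the highest (AKR-named) thus rest on 5 genes. No marker with a mean was past 2-fold in any comparison. Tumor stromal fibroblast markers had medians of -2.42 to -0.96, that is, mostly lower means in Lung met. In C3Tag, however, Dcn was higher in Lung met (log2 ratio 0.75) and Col1a2 was close to equal (-0.06), both named after their values were seen. Lum, a proteoglycan of collagen fibrils, had log2 ratios of -5.39 to -1.63, and Thbs2, a matricellular protein, of -2.87 to -1.83.

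**Figure D5:**
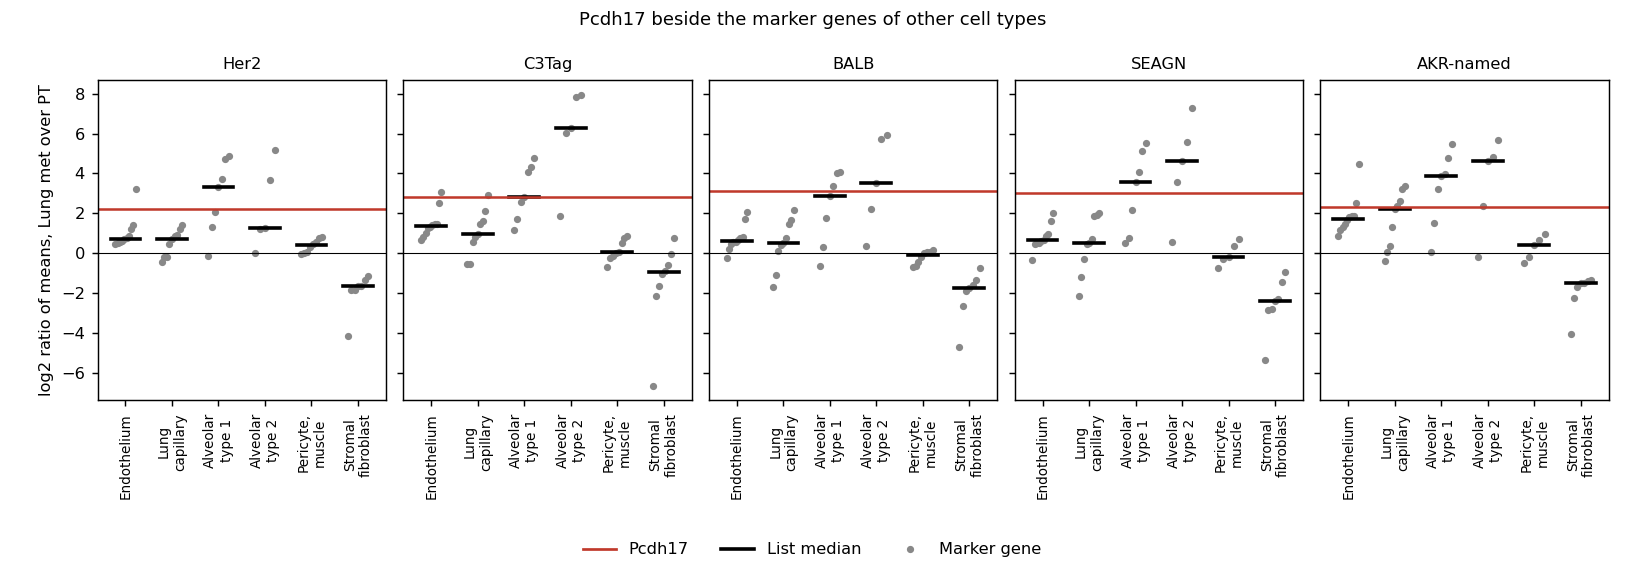
log2 ratio of Lung met over PT for marker genes of 6 cell types (grey points), with the median of each list (black bars) and Pcdh17 (red line), in 1 panel per comparison. Endothelial medians, at 0.62 to 1.71, lie below Pcdh17, and pericyte and stromal fibroblast genes all lie below it.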

How the data were processed

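Per the file headers, each deposited table compares Lung met with PT. Partek Flow was used by the authors for alignment, gene counting and normalization, the last by a method not given in the sources used here. The authors then compared the tissues of the PyMT-F1 mice with DESeq2 and those of the other mice with Gene Specific Analysis. The labels describe ribosome-depleted total RNA, and the methods mRNA libraries. Their methods name mm9 and mm10, and the submitters' processing notes list mm39 and STAR 2.7.8a. The deposited group means were treated as a signal with no SD. The authors' p-values, FDR, ratios and fold changes were not used, which leaves out Myc.

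From the means, log2 ratios, ranks, counts past 2-fold and per kb levels (GENCODE M21 exons) were computed with Python 3.11.15, numpy 2.4.6, pandas 2.3.3 and matplotlib 3.10.9. The log2 ratios, ranks and counts past 2-fold were first run on simulated means with known changes and no noise, and the per kb levels were not. BALB and SEAGN genes, with identifiers of the BALB/cJ annotation, were matched by symbol. No test was possible. The genes named are all members, the 5 most like Pcdh17 and, per list, at most 4 genes past 2-fold in all 5 comparisons. Any other gene is said to be named after its values were seen, is a neighbour of Pcdh17 or is named for a missing mean. Members and lists were chosen with earlier results of these data known.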

Additional observations from a re-analysis of the deposited data

How the results depend on the processing

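No paired analysis was possible because the values are group means and no test was made. Leaving out a replicate could not be done for the same reason. Log2 ratios were recomputed with 1 or 10 added to both means, centred on the median of all genes, and rescaled to equal totals. All 21 recomputed values of Pcdh17 kept their direction and stayed past 2-fold, between 1.98 and 3.59. In C3Tag the Lung met total was 57.3% of the PT total, as 3 genes (Gm22614, Gm25890 and Gm24830) held 44.7% of it in PT, and rescaling put Pcdh1 past 2-fold there (log2 ratio 1.28). Without those genes in the totals, an alternative chosen after seeing the data, Pcdh1 was at 0.42 and Pcdh17 at 2.74. Pcdh18 in C3Tag changed sign around 0, to -0.0006 on centring and to -0.04 on the latter rescaling. At 1.5-fold in either direction, 2 members passed in Her2, 2 in BALB and 3 in AKR-named, where Pcdh10 passed as lower in Lung met (log2 ratio -0.62). At 4-fold 1 passed in C3Tag. The other counts of members were within 1.5 times those given. Ranking per kb of exon moved 22 of 25 member ranks in each tissue by over 5 percentage points. Without genes whose higher mean was under 10, Pcdh17 exceeded 5.46% of genes in BALB PT and 8.49% in SEAGN PT. As depth is unknown, so is the precision of each mean, the low means of Pcdh10 in the PyMT-F1 comparisons included.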

Other observations

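Some lists held single genes with large differences, all named after their values were seen except Cyp2f2. Of 5 airway markers, 2 had a mean in any comparison. Cyp2f2, a cytochrome P450 of club cells, was higher in Lung met in all 5 comparisons, with log2 ratios of 1.02 to 3.63. Foxj1, with means in 4 comparisons, ran from -0.42 in SEAGN to 0.94 in C3Tag. Among neuron and Schwann cell markers, the tubulin-binding gene Stmn2 had log2 ratios of 1.82 to 3.30 in the 4 comparisons with means, while Sox10 stayed between -0.35 and 0.09, and the list's median was -0.41 to 0.18. The macrophage list had medians of -0.13 to 0.72. Within it Siglecf, a lectin of alveolar macrophages, had log2 ratios of 2.67 to 3.77 in 3 comparisons and Chil3 of 5.80 and 5.83 in SEAGN and Her2, and Csf1r stayed between -0.40 and 0.26. Lung fibroblast markers had medians of 0.13 to 1.65, with none of 7 past 2-fold throughout. That call needs a mean in each comparison, and Inmt and Wnt2 had means only in AKR-named and Fgfr4 in 4 comparisons. Inmt had a log2 ratio of 6.91 in AKR-named. Luminal epithelial markers had medians of -0.22 to 0.23, and the milk protein gene Wap ran from -1.61 in SEAGN to 2.82 in BALB.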
